A study of Mus musculus with 60 samples.

Results

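The genes described here are 7 that mark microglia, the resident macrophages of the brain: Aif1, Cx3cr1, Csf1r, P2ry12, C1qa, C1qb and C1qc. They are 7 of the 19057 genes with a named probe on the array, and 11 of its 45281 probes are annotated to them. Every probe annotated to a symbol was taken. Aif1 was read from a stated probe, and each other gene from its probe with the highest mean over 60 arrays. None of the 7 genes changed with condition, with time or in any contrast of saline or drug at the threshold of an adjusted p under 0.05 (limma, Benjamini-Hochberg adjustment over all probes). The lowest averaged difference was that of Aif1 after tianeptine, which stood at -0.18 on the log2 scale (SE 0.0594).

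The arrays measured RNA from the striatum of male C57BL/6J mice aged 6 to 10 weeks by the labels. Mice received 1 intraperitoneal injection and were killed 1, 2, 4 or 8 h later, while naive mice were not injected. The injection held saline, or imipramine at 10 mg/kg, or either fluoxetine or tianeptine at a dose of 20 mg/kg. Imipramine is a tricyclic antidepressant, fluoxetine an inhibitor of serotonin reuptake, and tianeptine an antidepressant with a tricyclic core. Each of the 20 groups held 3 arrays, and each array carried the pooled RNA of 2 mice, so p-values measure the spread between pools. All mice were of 1 inbred strain, and no group received repeated doses. The 60 arrays lay on 10 chips of 6, which are numbered here in the order of their identifiers and entered the model as a random block. Signals are log2 values after quantile normalisation between arrays, and a difference of 1 is a doubling. Raw array medians ran from 6.71 to 8.76 before normalisation, and arrays of 1 group correlated at r = 0.977 to 0.993 afterwards.

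Microglia survive in the adult brain through Csf1r, the receptor for the cytokines Csf1 and Il34. They watch neurons through Cx3cr1, the receptor for the neuronal chemokine Cx3cl1, and through P2ry12, the purine receptor that steers their processes toward released nucleotides. Aif1 encodes the actin-binding protein Iba1, the usual histological marker of these cells, and C1qa, C1qb and C1qc encode the chains of C1q, which starts the classical complement cascade and tags synapses for removal. A whole-tissue array cannot tell fewer microglia from less RNA per microglial cell. The common array median was 7.57, and the means of the 7 main probes lay between 9.36 and 11.58. Since the probe with the highest mean was taken for each gene but Aif1, this is a description and no check of the tissue. Among the 4 other probes the dimmer P2ry12 probe (7.48) and 1 Aif1 probe (7.56) lay below that median. The Entrez IDs and chromosomes are 11629 and 17 for Aif1, 13051 and 9 for Cx3cr1, 12978 and 18 for Csf1r, and 70839 and 3 for P2ry12. Those of C1qa, C1qb and C1qc are 12259, 12260 and 12262, all on chromosome 4. No detection values were used here, so signal over background is unknown.

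Aif1 had a mean signal of 9.83 ± 0.175 (SD, n = 60 arrays). Its 12 naive arrays ran from 9.66 to 10.16 with a median of 9.92, and its 12 saline arrays from 9.60 to 10.13 with a median of 9.92. After imipramine the lowest, median and highest signals were 9.48, 9.85 and 10.08, and after fluoxetine they were 9.46, 9.81 and 10.09. After tianeptine they were 9.42, 9.74 and 10.04. The arrays of all 5 conditions overlapped, and the condition means ran from 9.92 in naive and 9.91 in saline to 9.81 for imipramine, 9.79 for fluoxetine and 9.72 for tianeptine. Neighbours in this order lay closer together than the SD within a condition, which was 0.145 to 0.179. That SD is the spread of single arrays, so this is no test of the means.

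The tianeptine difference of Aif1 had a 95% interval of -0.29 to -0.06, and 1 of 12 tianeptine arrays lay above the saline mean. Its unadjusted p was 0.00485 and its adjusted p 0.652 in limma, where 12 probes (0.0265% of 45281) passed and 2545 (5.62%) had an unadjusted p under 0.05. None of the 7 genes passed, and Aif1 was the 1 of 7 with an unadjusted p under 0.05. Imipramine gave -0.08 (SE 0.0594) and fluoxetine -0.11 (SE 0.0595), with adjusted p-values of 1.00 in both limma contrasts. These 3 comparisons share the saline arrays. No chip held saline and tianeptine arrays of the same time, and with chip as a fixed block the tianeptine difference was -0.17 (limma adjusted p = 0.470). A second Aif1 probe gave -0.03 (SE 0.0531) and another, whose mean of 7.56 lay just below the common array median, gave -0.14 (SE 0.0760). The 3 probes thus had the same sign and different sizes for tianeptine. For imipramine the second probe gave 0.07, opposite in sign to the main probe, and the third -0.06. For fluoxetine they gave -0.03 and -0.05. Aif1 also read lower on chips 8 to 10 (mean 9.67) than on chips 1 to 3 (9.91) and 4 to 7 (9.89), and those chips held 4 of the 12 tianeptine and 3 of the 12 saline arrays. The part of chip in the difference beyond these fits was not tested.

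At single times Aif1 after tianeptine stood at -0.17 at 1 h, -0.15 at 2 h, -0.09 at 4 h and -0.28 at 8 h, each with an SE of 0.128. At 8 h the 3 tianeptine arrays read 9.42, 9.72 and 9.73, and the 3 saline arrays 9.60, 10.01 and 10.13. The groups overlapped through the lowest saline array, and the limma adjusted p was 1.00 (unadjusted p = 0.0301). Leaving out 1 array at a time moved the averaged tianeptine difference between -0.20 and -0.15, with no adjusted p under 0.503 in limma.

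**Figure D1:**
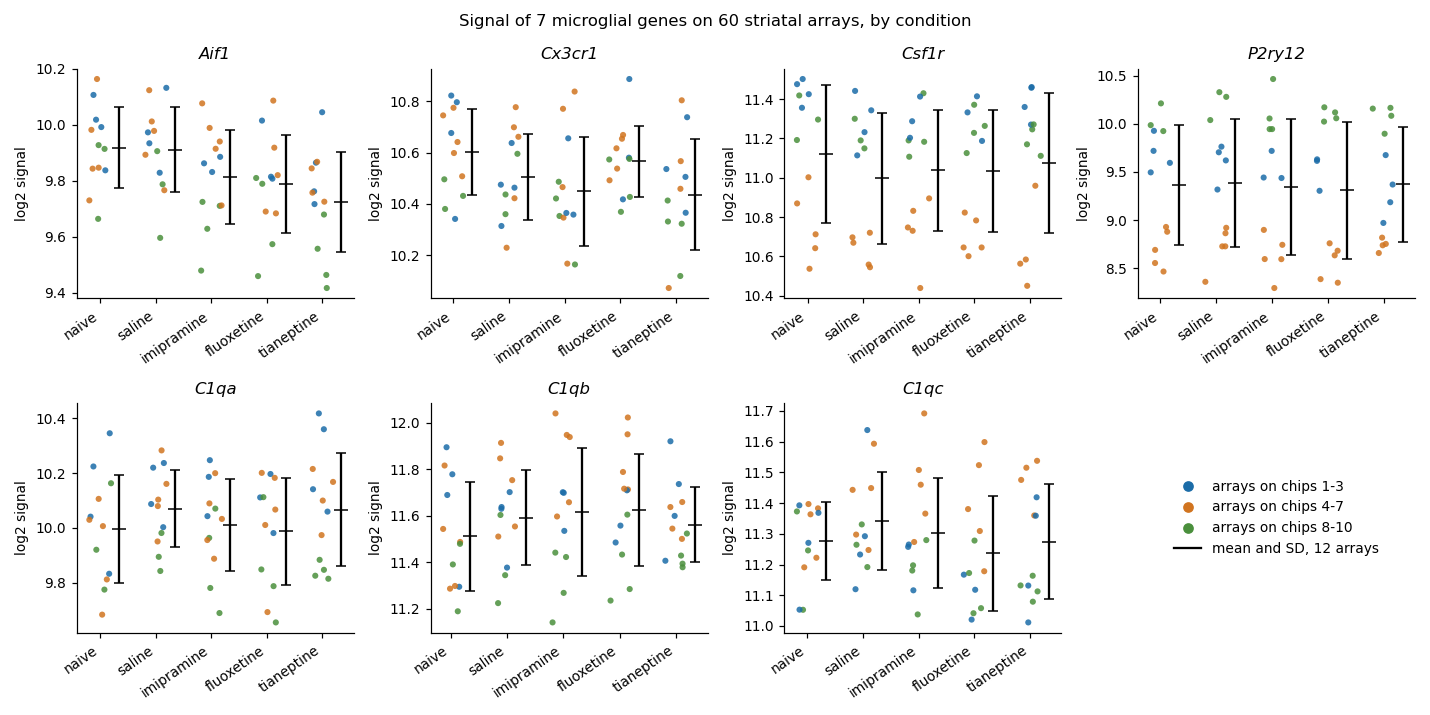
Log2 signal of each gene's main probe (y axis) by condition (x axis), 1 point for each of the 60 arrays, coloured by the run of chip identifiers, with the mean and SD of 12 arrays beside each condition. The conditions overlap for all 7 genes, while Csf1r and P2ry12 split by chip within every condition.

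Cx3cr1 had a mean of 10.51 ± 0.189 (SD, n = 60). Its median was 10.62 in naive arrays (10.34 to 10.82), 10.47 in saline (10.23 to 10.78), 10.39 after imipramine (10.16 to 10.84), 10.57 after fluoxetine (10.37 to 10.89) and 10.44 after tianeptine (10.07 to 10.80). All 5 ranges overlapped. The order of the condition means was naive (10.60), fluoxetine (10.57), saline (10.51), imipramine (10.45) and tianeptine (10.44), with SDs from 0.138 to 0.218. Neighbouring means did not differ beyond this spread of single arrays, which is no test of the means. Saline stood at -0.10 from naive (SE 0.0619, 95% interval -0.22 to 0.03, adjusted p = 0.938 in limma), where 4 probes (0.00883%) passed. Imipramine, fluoxetine and tianeptine stood at -0.06, 0.06 and -0.08 from saline, with intervals that each included 0. Among the 20 groups the lowest mean was that of tianeptine at 1 h (10.31 ± 0.372, SD, n = 3) and the highest that of fluoxetine at 1 h (10.70 ± 0.163).

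Over all 5 conditions the moderated F test of limma gave Aif1 an unadjusted p of 0.0131 (adjusted p = 0.501) and Cx3cr1 one of 0.0288 (adjusted p = 0.626). The other Aif1 probes had unadjusted p-values of 0.271 and 0.275 in the same F test. In that test 139 probes (0.307%) passed and 3156 (6.97%) had an unadjusted p under 0.05, against 0 and 2 of the 7 genes. Csf1r, P2ry12, C1qa, C1qb and C1qc had unadjusted p-values from 0.511 to 0.987 there.

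Csf1r had a mean of 11.05 ± 0.324 and P2ry12 one of 9.36 ± 0.638 (SD, n = 60 each), the 2 widest spreads among the 7 genes. Chip accounted for 89.2% of the variance of Csf1r and 93.7% of that of P2ry12, and condition for 1.67% and 0.174%. The median chip share over all probes was 25.9%, and 375 probes had a chip share as high as that of P2ry12 or higher. Chip shares of the main probes of the other 5 genes ran from 41.1% to 48.2%. By condition, the median of Csf1r was 11.24 in naive arrays, 11.13 in saline, 11.15 after imipramine, 11.16 after fluoxetine and 11.21 after tianeptine, with arrays from 10.44 to 11.50. The median of P2ry12 was 9.55, 9.47, 9.44, 9.46 and 9.28 in the same order, with arrays from 8.30 to 10.46. The conditions overlapped almost entirely for both genes. No condition mean lay further from its neighbour than the SD within a condition, 0.307 to 0.357 for Csf1r and 0.597 to 0.712 for P2ry12. This SD of single arrays holds the differences between chips, so the comparison is no test of the means.

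The 10 chips fall into 3 runs by the start of their identifiers, chips 1 to 3, 4 to 7 and 8 to 10. P2ry12 read 8.97 to 9.93 on the 18 arrays of the first run, 8.30 to 8.93 on the 24 of the second and 9.90 to 10.46 on the 18 of the third. Each run held arrays of all 5 conditions, 3 to 5 of each. The second run lay below both others without overlap, and the 10 chip means spanned 1.70 on the log2 scale. Csf1r read 11.11 to 11.50 on the first run and 11.11 to 11.43 on the third. On the second run its lowest array read 10.44 and its median was 10.68, again without overlap with either other run. These runs were compared after the pattern had been seen.

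The dimmest Aif1 probe had a chip share of 81.6% and also read low on the second run, at 7.08 to 7.56 against 7.26 to 7.88 on the first and 7.64 to 7.91 on the third. It overlapped the first run and not the third. The dimmer probes of P2ry12 and Csf1r did not split this way. For P2ry12 the dimmer probe read 7.14 to 7.62, 7.23 to 7.71 and 7.27 to 7.72 on the 3 runs, and for Csf1r it read 8.24 to 8.80, 8.37 to 8.91 and 8.24 to 8.64. Chip accounted for 30.2% and 45.9% of their variance. The origin of the steps was not tested, and the labels do not say what the chip runs were.

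**Figure D2:**
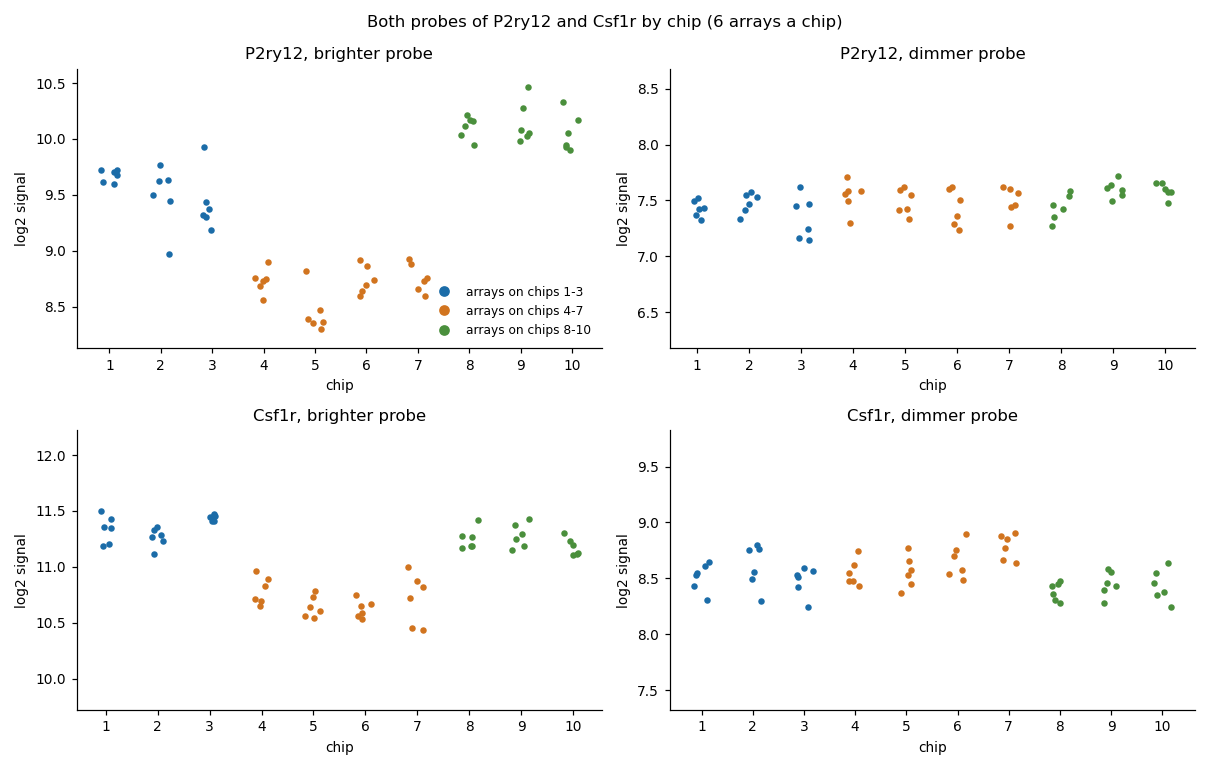
Log2 signal (y axis, the same height of 2.5 log2 units in each panel) by chip (x axis) for both probes of P2ry12 and of Csf1r, 1 point an array and 6 arrays a chip. The brighter P2ry12 probe lies at 8.30 to 8.93 on chips 4 to 7 and at 9.90 to 10.46 on chips 8 to 10, while for the dimmer probes of both genes the ranges of the 3 runs overlap.

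With chip as a random block, the averaged P2ry12 contrasts had SEs up to 0.183 and 95% intervals that reached from -0.46 to 0.40. With chip as a fixed block these SEs were at most 0.0668. P2ry12 then stood at 0.04 for saline against naive, -0.10 for imipramine, -0.10 for fluoxetine and -0.12 for tianeptine against saline. The smallest unadjusted p of these 4 was 0.0769, for tianeptine (limma adjusted p = 0.838). The lowest single-time difference of any of the 7 genes was that of P2ry12 at 4 h after imipramine, at -0.45 (SE 0.392). The 3 imipramine arrays read 9.94 on chip 10, 8.74 on chip 4 and 8.60 on chip 7, and the 3 saline arrays 9.70 on chip 1, 8.92 on chip 6 and 10.28 on chip 9. Of the imipramine arrays 2 of 3 lay on the low run, against 1 of the 3 saline arrays, and the difference was -0.27 with chip as a fixed block. The dimmer P2ry12 probe gave 0.14 for imipramine averaged over time (SE 0.0501), with 11 of 12 arrays above the saline mean, an unadjusted p of 0.00661 and an adjusted p of 1.00 in limma. The dimmer probe also gave -0.03 for saline against naive, 0.06 for fluoxetine and 0.10 for tianeptine, so the 2 probes of P2ry12 had opposite signs in all 4 averaged contrasts. Imipramine and fluoxetine against saline had 0 of 45281 probes past the threshold (0% each) in limma, with 2148 and 1852 at an unadjusted p under 0.05.

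For Csf1r the averaged differences were -0.11 for saline against naive (SE 0.0959) and 0.03, 0.04 and 0.04 for imipramine, fluoxetine and tianeptine against saline. With chip as a fixed block saline stood at -0.10 from naive (SE 0.0505, unadjusted p = 0.0467, limma adjusted p = 0.809), while the dimmer Csf1r probe gave 0.01. Of the 7 genes on a list of ligands and partners, 0 passed for condition, where 0.307% of all probes did. Nt5e, which makes adenosine from AMP, came nearest (adjusted p = 0.276 in limma). Csf1, a ligand of Csf1r, and Il34, its ligand made by neurons, did not pass (adjusted p = 1.00 and 0.761 in limma). Cx3cl1, the ligand of Cx3cr1, stood at 0.12 for saline against naive (SE 0.0678, adjusted p = 0.926 in limma).

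**Figure D3:**
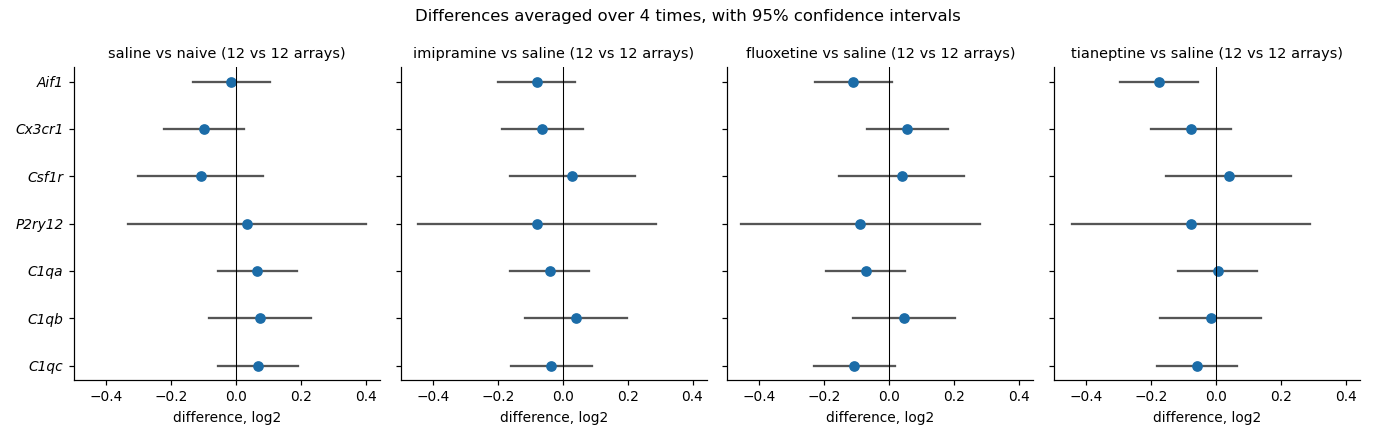
Averaged log2 differences (x axis) of the 7 genes for saline against naive and for each drug against saline, with 95% confidence intervals as bars, from 12 against 12 arrays. The interval of Aif1 after tianeptine (-0.29 to -0.06) is the 1 of 28 that leaves out 0, and those of P2ry12 are the widest.

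C1qa, C1qb and C1qc lie next to each other on chromosome 4, with no other protein-coding gene between them in RefSeq. C1q protein is assembled from the chains that they encode. To show what lies before 2 of the starts, the 250 bases upstream of C1qb and C1qc are given from RefSeq (GRCm38.p6, minus strand, printed 5′ to 3′ along the gene). C1qb spans chr4:136886201-136886450 and C1qc chr4:136892915-136893164. Capitals mark GAGGAA and GGAAGT, 2 forms of the core bound by the myeloid factor PU.1, on either strand (TTCCTC and ACTTCC on the other). The 2 motifs can share letters.
C1qb: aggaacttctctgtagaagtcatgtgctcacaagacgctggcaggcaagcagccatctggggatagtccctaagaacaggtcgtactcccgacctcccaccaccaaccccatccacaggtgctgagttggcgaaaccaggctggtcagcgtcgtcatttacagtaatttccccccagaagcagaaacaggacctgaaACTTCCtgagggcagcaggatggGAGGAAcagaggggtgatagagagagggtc
C1qc: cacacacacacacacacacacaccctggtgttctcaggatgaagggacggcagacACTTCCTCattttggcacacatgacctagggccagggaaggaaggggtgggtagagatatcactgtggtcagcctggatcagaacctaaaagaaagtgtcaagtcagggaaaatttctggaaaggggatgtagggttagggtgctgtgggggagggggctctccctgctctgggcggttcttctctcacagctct
C1qb holds 1 copy of each motif at separate places, and C1qc holds 1 copy of each in which they overlap. Of the 7 genes 5 were matched in the promoter table, and 4 of the 5 windows held either motif, with Cx3cr1 the exception. Over 32851 mouse windows of 250 bases, 23.3% held GAGGAA, 19.7% held GGAAGT and 36.7% held either. A match in these letters is a description of the window.

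The means over 60 arrays were 10.03 ± 0.180 for C1qa, 11.58 ± 0.222 for C1qb and 11.29 ± 0.168 for C1qc (SD). Averaged over time, saline stood above naive by 0.06 for C1qa, 0.07 for C1qb and 0.07 for C1qc, with SEs of 0.0608, 0.0779 and 0.0619 and 95% intervals that included 0. Against saline the 9 drug differences of the C1q genes ran from -0.11 for C1qc after fluoxetine to 0.04 for C1qb after fluoxetine. The 3 chains thus did not share a sign after fluoxetine, and each of the 9 intervals included 0. By condition in the order naive, saline, imipramine, fluoxetine and tianeptine, the medians were 10.02, 10.08, 10.04, 10.04 and 10.08 for C1qa. They were 11.48, 11.62, 11.63, 11.66 and 11.53 for C1qb. For C1qc they were 11.32, 11.29, 11.27, 11.18 and 11.26. All conditions overlapped for each of the 3 genes, with arrays from 9.65 to 10.42, 11.14 to 12.04 and 11.01 to 11.69.

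The naive group at 1 h held the lowest mean of all 20 groups for each of the 3 C1q genes. C1qa read 9.92, 9.83 and 9.68 on the 3 naive arrays at 1 h and 10.22, 10.16 and 10.10 on the 3 saline arrays, and the groups did not overlap. C1qb read 11.19, 11.30 and 11.30 in naive and 11.64, 11.51 and 11.85 in saline, again without overlap. C1qc read 11.05, 11.05 and 11.22 in naive and 11.12, 11.25 and 11.44 in saline, and these groups overlapped. Separation of 3 against 3 arrays occurred in 2 of the 7 genes in this comparison and in 10.2% of all probes.

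The fitted differences at 1 h were 0.32 for C1qa (SE 0.126, unadjusted p = 0.0144, adjusted p = 0.643), 0.33 for C1qb (SE 0.162, unadjusted p = 0.0453, adjusted p = 0.748) and 0.12 for C1qc (SE 0.129, adjusted p = 0.929) in limma. In this contrast 5 probes (0.011%) passed and 2990 had an unadjusted p under 0.05, against 0 and 2 of the 7 genes. Without the third saline array C1qb stood at 0.20 (limma adjusted p = 0.950), and with chip as a fixed block it stood at 0.22 (SE 0.148). C1qc was 0.04 without the third saline array and 0.07 with chip as a fixed block. The 1 chip that held both groups, chip 7, gave 0.42 for C1qa, 0.55 for C1qb and 0.22 for C1qc, from 1 array each. Without the third naive array the values were 0.27, 0.33 and 0.15. Both of these last comparisons were chosen after the values had been seen.

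In naive mice C1qa stood 0.35 higher at 8 h than at 1 h (SE 0.130, unadjusted p = 0.0103, adjusted p = 0.888 in limma), where 4 probes (0.00883%) passed. No chip held naive arrays of both times. The naive arrays at 8 h read 10.35, 10.03 and 10.16. C1qb and C1qc gave 0.30 (SE 0.166) and 0.19 (SE 0.132). Single arrays moved both values: leaving out naive replicate 1 of the 8 h group gave 0.17 for C1qb, and leaving out replicate 3 or 2 of that group gave 0.12 or 0.30 for C1qc. These contrasts use the same naive arrays at 1 h as the comparison with saline. The limma F test of time in naive mice gave C1qa an unadjusted p of 0.0682. With chip as a fixed block that test gave 0.0938 (adjusted p = 0.866).

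**Figure D4:**
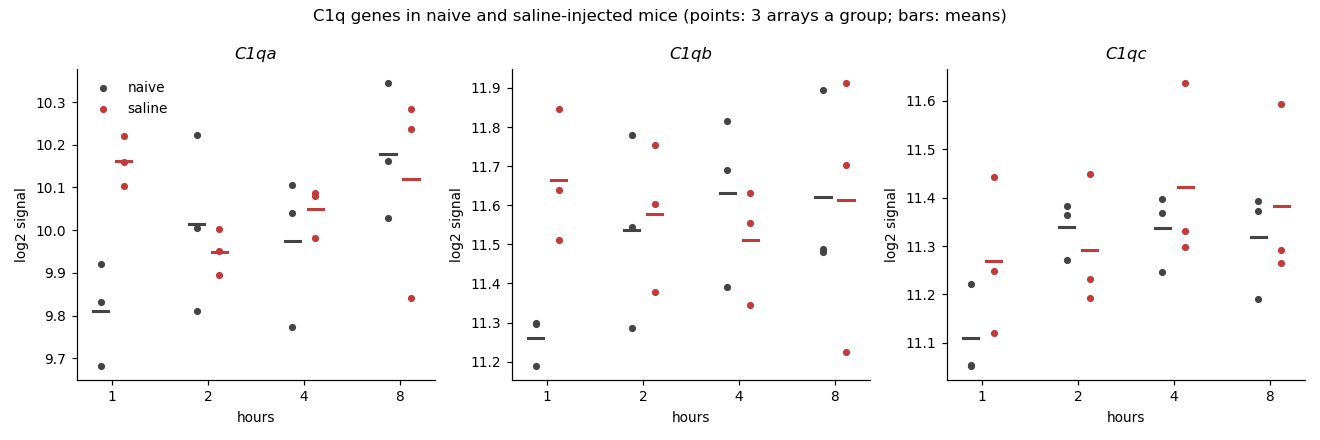
Log2 signal of C1qa, C1qb and C1qc (y axis) by hours (x axis) in naive and saline-injected mice, with 3 arrays a group as points and the group mean as a bar. The naive arrays at 1 h lie lowest on average for each gene, and for C1qa and C1qb they do not overlap the saline arrays of that hour.

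Over the 4 times and averaged over conditions, the 21 differences of the 7 genes from 1 h ran from -0.08 for P2ry12 at 2 h to 0.10 for C1qc at 4 h. None passed in limma and none had an unadjusted p under 0.05. Against 1 h, 7 probes (0.0155%) passed at 2 h, 69 (0.152%) at 4 h and 603 (1.33%) at 8 h. In the time test 659 probes (1.46%) passed and 4538 (10.0%) had an unadjusted p under 0.05, against 0 and 0 of the 7. The interaction of condition and time gave 1 probe (0.00221%), and 1852 at an unadjusted p under 0.05, with 0 of the 7 genes in either count (limma). The time test within naive mice gave 4 probes (0.00883%) and 2106 at an unadjusted p under 0.05, again with 0 and 0 of the 7.

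Over the 16 single-time comparisons the 112 differences of the 7 genes ran from -0.45 to 0.33. None passed in limma, and 3 had an unadjusted p under 0.05, the C1qa and C1qb values at 1 h and Aif1 at 8 h after tianeptine. With chip as a fixed block the values ran from -0.33 to 0.39 and 4 had an unadjusted p under 0.05, again with none past the adjusted threshold. C1qa at 1 h and Aif1 at 8 h were among them and C1qb at 1 h was not. The others were C1qb at 2 h after tianeptine (0.39, limma adjusted p = 0.896, against 0.17 with the random block) and Cx3cr1 at 1 h after fluoxetine (0.30, limma adjusted p = 0.832, against 0.24). Over all probes, tianeptine at 2 h gave 2 calls (0.00442%), and the comparisons other than this and saline at 1 h gave 0 (0%), with 1554 to 2327 probes at an unadjusted p under 0.05.

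The groups of 3 did not overlap in 6 of the 112 cases (5.36%), the C1qa and C1qb values of saline at 1 h and 4 after drugs. At 1 h after tianeptine C1qa read 9.85, 10.06 and 10.10 against 10.10 to 10.22 in saline, and the nearest arrays of both groups rounded to 10.10. The fitted difference was -0.16 (SE 0.130). C1qb read 11.38, 11.41 and 11.50 there against 11.51 to 11.85 in saline, a difference of -0.21 (SE 0.167). These are the same saline arrays as in the comparison with naive mice.

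At 2 h after fluoxetine Aif1 read 9.81, 9.82 and 9.57, against 9.83, 9.98 and 9.91 in saline (difference -0.18, SE 0.124). At 4 h after imipramine C1qa read 9.96, 9.96 and 9.89, against 10.09, 10.08 and 9.98 in saline (difference -0.07, SE 0.130). Both gaps were narrow, with 9.82 next to 9.83 and 9.96 next to 9.98.

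The share of all probes without overlap gives the background. For saline against naive it was 10.2%, 8.1%, 7.87% and 7.55% at 1, 2, 4 and 8 h, with 2, 0, 0 and 0 of the 7 genes. For imipramine against saline it was 7.85%, 6.97%, 9.31% and 7.71%, with 0, 0, 1 and 0. For fluoxetine it was 7.98%, 6.37%, 7.12% and 8.58%, with 0, 1, 0 and 0, and for tianeptine 8.45%, 7.44%, 7.64% and 7.81%, with 2, 0, 0 and 0. The 7 genes as a whole were thus not separated more often than the background. With chip as a fixed block, the 28 intervals of 95% for the averaged differences lay between -0.28 and 0.20.

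Whether the 7 genes varied together from pool to pool was asked with correlations over the 60 arrays after centring within chip, which leaves differences between the 20 groups in. Of 21 pairs, 6 passed at an adjusted p under 0.05 (100000 permutations within chip, two-sided, Benjamini-Hochberg adjustment over 21 pairs), 5 positive and 1 negative. C1qa and C1qc gave r = 0.49 (permutation p = 2.5e-04, adjusted p = 0.00525) and rho = 0.54 (adjusted permutation p = 0.00189). C1qb and C1qc gave r = 0.46 (permutation p = 6.6e-04, adjusted p = 0.00693) and rho = 0.51, and C1qa and C1qb r = 0.45 (permutation p = 0.00101, adjusted p = 0.00707) and rho = 0.42. Without the 2 arrays farthest from the median these were 0.44, 0.46 and 0.39. Within single chips of 6 arrays r was above 0 on 8 or 9 of the 10 chips for each of the 3 pairs, with medians of 0.61, 0.42 and 0.51.

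Aif1 varied with C1qc (r = 0.38, rho = 0.42, adjusted permutation p = 0.0233 and 0.0119) and with C1qa (r = 0.35, rho = 0.33, adjusted permutation p = 0.0365 and 0.0569). The second pair gave 0.29 without the 2 farthest arrays. P2ry12 and C1qb gave r = -0.36 (adjusted permutation p = 0.0365) and rho = -0.32 (adjusted permutation p = 0.0604), with -0.28 without the 2 farthest arrays. Cx3cr1 and C1qb gave -0.35 and P2ry12 and C1qa -0.34, each with an adjusted permutation p of 0.0517. After centring on group as well as chip, the C1q pairs and both Aif1 pairs passed again, while P2ry12 and C1qb gave -0.30 (adjusted permutation p = 0.0531). Further pairs passed only with this centring. Aif1 gave 0.50 with C1qb (adjusted permutation p = 0.00182) and -0.39 with P2ry12 (adjusted permutation p = 0.0199). P2ry12 and C1qa gave -0.36 (adjusted permutation p = 0.0254), and Csf1r and C1qc 0.31 (adjusted permutation p = 0.0453). Of the 9 pairs called there 2 were negative, both with P2ry12. These permutations did not allow for the fitted group means.

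Centring within chip changed the sign of 9 of the 21 pairs, 6 of them with Csf1r or P2ry12. The other 3 were those of Cx3cr1 with C1qa, C1qb and C1qc, at -0.11, -0.35 and -0.15 within chip and 0.18, 0.08 and 0.08 without centring. Csf1r and P2ry12 gave r = 0.18 within chip (adjusted permutation p = 0.196) and 0.78 without centring, and Csf1r and C1qc 0.19 within chip and -0.50 without. Without centring 15 of the 21 pairs passed. The arrays of a chip share their hybridisation, and the values describe how pools varied in these arrays.

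**Figure D5:**
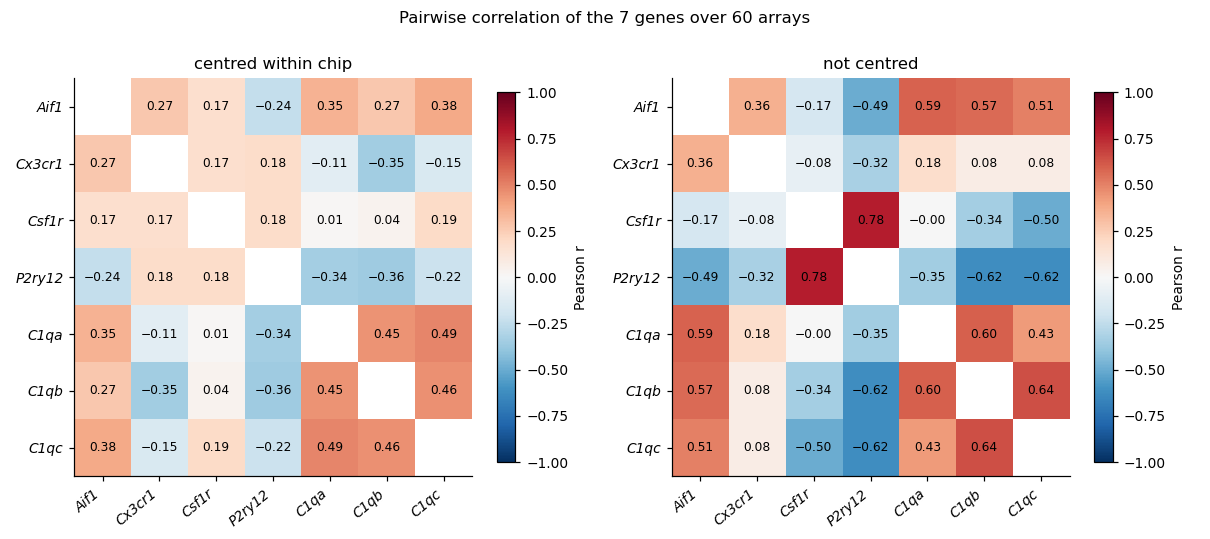
Pearson r for each of the 21 pairs of genes over 60 arrays, centred within chip (left) and not centred (right), on a colour scale from -1 to 1. The 3 C1q pairs lie at 0.45 to 0.49 after centring, and the pair of Csf1r and P2ry12 goes from 0.18 to 0.78 when chip is left in.

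Among 34874 named probes outside the 7 genes, 27 correlated at r of 0.5 or more with the mean of the 7 genes. All probes were centred within chip, and the 7 genes were also scaled to the same SD before averaging. The median r over the named probes was 0.00016. The 10 highest were Olfml3 (0.63), Nos3 (0.59), Unc93b1 (0.59), H2-T23 (0.57), Apcdd1 (0.56), B2m (0.55), Fcer1g (0.55), Ly86 (0.54), Rnaseh1 (0.54) and Nagk (0.54). Of these, Olfml3, Unc93b1, Fcer1g and Ly86 stood in a list of 30 other microglial genes. The same r over that list had a median of 0.12 and ran from -0.22 to 0.63, and the medians of 10 endothelial genes and 6 pericyte genes were 0.14 and 0.11. C1qa was most like B2m (0.65), the light chain of class I major histocompatibility molecules, and C1qc was most like Nos3 (0.65), the endothelial nitric oxide synthase. Likeness for the others was highest for Pnmal1 with Aif1 (0.54), Prkd3 with Cx3cr1 (0.70), Plec with Csf1r (0.58), Jag1 with P2ry12 (0.63) and Ndufc1 with C1qb (0.59). The number of named probes more like a gene than any of the other 6 genes was 4288 for P2ry12, 3748 for Csf1r, 1580 for Cx3cr1, 128 for Aif1, 62 for C1qb, 40 for C1qc and 14 for C1qa.

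The 30 further microglial genes on the array were each read from the brightest probe. The list held 0 calls for condition, where 0.307% of all probes passed, with P2ry13 nearest (adjusted p = 0.165 in limma). For time, where 1.46% of all probes passed, it held 1 called gene. That gene was Mertk, a receptor for the uptake of dying cells that astrocytes also use, which rose by 0.24 at 4 h (SE 0.0513, adjusted p = 0.0250) and by 0.25 at 8 h (SE 0.0513, adjusted p = 0.00284) against 1 h in limma. After tianeptine 22 of 30 genes lay below saline with a median of -0.03, against 50.4% of all probes and a median of -0.00055, and 0 passed. Of these genes 6 had an unadjusted p under 0.05 in limma, where 5.62% of all probes did, and all 6 lay below saline: Tmem119 (-0.14), P2ry13 (-0.18), Olfml3 (-0.16), Ly86 (-0.13), Spi1 (-0.13) and Lgmn (-0.10). Spi1 encodes PU.1. After imipramine 22 of 30 and after fluoxetine 20 of 30 lay below saline, with medians of -0.04 and -0.03 and 1 gene each at an unadjusted p under 0.05. Saline against naive gave 15 of 30 and a median of 0.00293, with 2 such genes. These drug comparisons share the saline arrays, and the list was drawn up with earlier results of these data known. The 30 genes were read on the same arrays and some varied together, as Olfml3 and Ly86 did with the mean of the 7. Their counts are therefore not counts of independent genes. Of the 30 genes 26 lay above the median of all probe means, while the background holds all probes. The same median is meant where genes of the lists below are set against the array median.

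Complement genes other than C1q gave 0 calls of 16 for condition and time, with Cd55, an inhibitor of complement convertases, nearest for condition (adjusted p = 0.739 in limma). Over all probes 0.307% passed for condition and 1.46% for time. Of the 16 complement genes 7 had a mean above the array median. C4b, cleaved by the proteases bound to C1q, had an adjusted p of 0.998. The list of activation and cytokine genes gave 0 of 21, including Il1b (adjusted p = 1.00) and Tnf (adjusted p = 1.00), whose signals of 7.34 and 7.19 lay below the array median. Nfkbia, the inhibitor of NF-κB, came nearest with an adjusted p of 0.0829 in limma. Of the 21 genes of this list 11 had a mean above the array median. A list of phagocytic and disease-associated genes gave 0 of 13 for condition, with Cd9 nearest (adjusted p = 0.806), and 1 for time, Axl, a receptor of the same family as Mertk (adjusted p = 0.0183 in limma).

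Other macrophages could share these markers. The level of 10 genes of border macrophages, taken as their mean log2 signal, ran from 7.75 to 7.94 on naive arrays, 7.79 to 7.94 on saline and 7.76 to 8.01 on tianeptine, and 0 of 10 passed for condition. That of 11 genes of blood monocytes and neutrophils ran from 7.63 to 7.85, 7.72 to 8.05 and 7.62 to 8.05, with 0 of 11. Over all probes 0.307% passed for condition. Means above the array median were held by 7 of the 10 border macrophage genes and 4 of these 11. For Mrc1, a defining marker of border macrophages, the tianeptine difference was -0.04 (SE 0.0566). The part of these cells in the differences of the 7 genes was not tested.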

How the data were processed

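RNA from striatum was hybridised by the study to Illumina MouseWG-6 v2 arrays, 60 in all. The deposited table holds log2 signals that were not normalised between arrays, although the study's methods place background subtraction before quantile normalisation and the log2 step. Whether the authors had subtracted background in this table is not stated. A second deposited table holds log2 values that the authors had quantile normalised, with a median of 7.72 on each array. Detection values were not analysed here. The deposited signals were quantile normalised here with limma 3.58.1 in R 4.3.3. A model of 20 group means was fitted to all 45281 probes, with chip as a random block (consensus correlation 0.201, statmod 1.5.0), empirical Bayes moderation and Benjamini-Hochberg adjustment over all probes within each comparison. Precision rests on the number of arrays, with a median SE of 0.0558 for averaged and 0.116 for single-time contrasts. No 2 arrays were identical (0 pairs), and the scripts were tested on simulated data.

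Genes were named by the platform annotation, which gave 1 symbol for 34885 probes. The rule for named genes was all 7 genes, then genes of each list past the threshold or nearest to it, and the 10 genes most like the mean of the 7. Genes with an unadjusted p under 0.05 in the microglial list, the ligands, C4b, Il1b, Tnf and Mrc1 were named after their values were seen. The 7 genes and all lists were chosen with earlier results of these data known. Alternatives were the authors' normalised values, median centring, other chip terms, z-scores within chip, brighter probes, a replicate block, only the groups compared, other probes and leaving out each array. Promoter sequences came from RefSeq (GRCm38.p6), and probe sequences were not used here.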

Additional observations from a re-analysis of the deposited data

How the results depend on the processing

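The count of calls among the 7 genes was 0 in each of 9 results (the tests of condition, time, their interaction and time in naive mice, the 4 averaged contrasts and the single-time contrasts) and stayed 0 under each alternative run, of which the fit of only the groups compared was run for 6 of the 9, and with each of the 60 arrays left out in turn (0 to 0). Over all probes, condition gave 139 calls and time 659, against 36 and 230 with median centring, 38 and 301 without a chip block, 232 and 992 with chip as a fixed block, and 38 and 993 for z-scores within chip. The replicate numbers were not taken to pair the arrays, since the labels name no batch for them. The numbers went partly with chip, as some chips held arrays of only 1 number. Of all same-number pairs, those on 1 chip included, 56.0% correlated at over 0.1. The median correlation of deviations was 0.017 for the same number on different chips, -0.139 for different numbers on different chips and 0.451 on 1 chip. With a replicate block beside the random chip block, 0 of the 7 genes passed in any result, and condition gave 145 calls over all probes.

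Of the 21 pairs of genes, 6 were called after centring within chip and 8 with the authors' values. After centring on group as well 9 were called (5 of the 6, without P2ry12 and C1qb), from permutations that did not allow for the fitted group means. Without centring 15 were called, where chip is left in by construction. Of 268 alternative values of averaged differences in the 7 genes, 261 lay within 1 SE of the reported value, 16 changed sign and 0 passed the threshold. The 7 further than 1 SE away came from other probes: Csf1r at 0.01 for saline and -0.07 for fluoxetine, Aif1 at 0.07 for imipramine, -0.03 and -0.05 for fluoxetine and -0.03 for tianeptine, and P2ry12 at 0.14 for imipramine. For P2ry12 the count says little, since the SE of its main probe was 0.183 with the random chip block. Its dimmer probe gave 0.10 for tianeptine against -0.08, which counted as within 1 SE despite the opposite sign. The same held for saline against naive and for fluoxetine. The difference of C1qb at 1 h was 0.55 on the chip that held both groups, chosen after seeing the data, against 0.33. Depth gives no limit here, since arrays carry no counts. The number of arrays does, and the cause of the differences between probes was not tested.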

Other observations

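Marker genes of the other cells of the striatum held 2 calls for condition in limma, neither of them in a single averaged contrast. Gjb6, which encodes the astrocyte gap junction protein connexin 30, passed with an adjusted p of 0.00161 and stood at 0.22 for saline against naive (SE 0.0575, adjusted p = 0.460) and 0.17 for tianeptine against saline (SE 0.0575, adjusted p = 0.652). Opalin, a membrane protein of myelinating oligodendrocytes, passed with an adjusted p of 0.00595 and stood at -0.18 and -0.28 in the same contrasts (adjusted p = 0.890 and 0.425). Condition gave 1 of 10 astrocyte genes, 1 of 11 oligodendrocyte genes, 0 of 10 endothelial genes, 0 of 6 pericyte genes and 0 of 9 genes of medium spiny neurons. It also gave 0 of 7 genes of cortical neurons, 0 of 9 of choroid plexus and ependyma, 0 of 8 of lymphocytes and 0 of 3 of red cells. Over all probes 0.307% passed for condition.

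With time, Cldn5, the tight-junction protein of brain endothelium, fell by 0.33 on the log2 scale at 8 h against 1 h (SE 0.0669, adjusted p = 0.00195 in limma). Pdgfra, the receptor that marks oligodendrocyte precursors, rose by 0.18 (SE 0.0408, adjusted p = 0.00757 in limma). Each was the 1 gene of its list called for time, of 10 endothelial and 11 oligodendrocyte genes. Over all probes 1.46% passed for time.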
